A study of Mus musculus with 6 samples.

Results

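The genes described here are 10 matrix proteases and protease inhibitors of liver sinusoidal endothelial cells (LSECs). They were chosen by a list of symbols, with earlier results of these data known. They are the matrix metalloproteinases *Mmp2*, *Mmp9*, *Mmp14* and *Mmp15*, the tissue inhibitors *Timp1*, *Timp2* and *Timp3*, the ADAMTS proteases *Adamts1* and *Adamts9*, and the membrane sheddase *Adam17*. All 10 were among the 23282 rows of the count files. After a filter on low counts 11583 rows were tested, and these held 9 of the 10 genes.

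LSECs line the liver sinusoids and normally lack an organized basement membrane. Matrix metalloproteinases and ADAMTS proteases cut matrix proteins, and ADAM17 releases membrane-anchored cytokines, growth factors and receptors. TIMPs bind matrix metalloproteinases and block them, and TIMP3 also blocks several ADAMTS proteases and ADAM17. The balance of proteases and TIMPs is known for its role in the turnover of liver matrix during fibrosis.

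The study set LSECs of TXNIP-/- mice, a whole-body knockout on a C57BL/6J background, beside LSECs of WT C57BL/6J mice, with 3 libraries per genotype. For its LSEC isolations it describes collagenase perfusion, a density gradient, selection with magnetic beads against CD146 and growth in endothelial medium, but the labels give no age, treatment or time in culture for these libraries. They also do not say that the libraries come from separate mice, so p-values measure the spread between these libraries, which may be technical. QuantSeq libraries are read from near the polyadenylated end of a transcript, so counts do not grow with transcript length. Levels of different genes are set side by side below as counts. Amplification, multiple alignments and the annotation of transcript ends can still differ between genes, and their part was not measured.

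The counts summed to 9147764, 10193952 and 9632360 in TXNIP-/- replicates 1, 2 and 3, and to 9745357, 9951078 and 9699159 in WT replicates 1, 2 and 3. At these totals a floor of 3 counts equals 0.286 to 0.335 CPM, the counts of a library scaled to a common size with TMM factors. No molecular identifiers are described, and the floor covers counting error only. The confidence intervals given below come from the edgeR test and also include the spread between these libraries. The knocked-out gene, *Txnip*, had 269, 216 and 191 counts in the TXNIP-/- libraries. It had 1901, 2019 and 1994 counts in the WT libraries. All TXNIP-/- libraries lay below all WT libraries, with a log2 fold change of -3.02 (standard error, SE, 0.14, edgeR adjusted p = 6.94e-10). Which part of *Txnip* the allele lacks is not given in the sources used here, so reads from its 3′ end check the labels only as far as they depend on that part.

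Within the WT group, replicates 1 and 2 were unlike replicate 3. *Rn45s*, the ribosomal RNA precursor, made up 10.03% and 9.68% of their counts, 17.8% in WT replicate 3 and 16.8% to 18.6% in the TXNIP-/- libraries. The chi-square per degree of freedom over genes was 3.93 between WT replicates 1 and 2, 8.41 to 9.62 among the TXNIP-/- libraries, and 36.9 and 40.0 when WT replicate 3 was set against WT replicates 1 and 2. Against the TXNIP-/- libraries WT replicate 3 gave smaller values, 13.3 to 17.2. WT replicates 1 and 2 differed by more than sampling noise and were counted as separate libraries. Results are given below also without WT replicate 3, or with a term that sets WT replicates 1 and 2 apart, where this turns a direction or ends a call. That term leaves WT replicate 3 as the only WT library compared with the TXNIP-/- libraries, so only the size of the change is read from it.

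The LSEC label was checked against 12 endothelial and sinusoidal markers, all of which were tested. Their summed level was 4577, 4872 and 5000 CPM in the TXNIP-/- libraries and 6918, 7065 and 5303 CPM in the WT libraries. The most abundant was the hyaluronan receptor *Lyve1*, with 13206, 16107 and 18485 counts in TXNIP-/- LSECs and 35772, 39680 and 14366 in WT LSECs. WT replicate 3 thus lay among the TXNIP-/- libraries for *Lyve1*. The endothelial cadherin *Cdh5* had between 9231 and 11471 counts in all 6 libraries. Of the 12 markers, 2 were called lower in TXNIP-/- LSECs, the scavenger receptors *Stab1* and *Mrc1*, and 0 were called higher. The mean of all 12 was lower in TXNIP-/- LSECs, with a median log2 fold change of -0.32 and no overlap of the genotypes for 4 of them. *Stab2* had an adjusted p of 0.0448 (edgeR) but a log2 fold change of -0.36, under the fold that a call needs. *Timp3*, described below, was lower in the same libraries, and the part of this shift in the result for *Timp3* was not tested.

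A gene was called when its adjusted p was under 0.05 and its linear fold change above 1.3. The methods of the study word this threshold as one on a log fold change. Read as a log2 fold change above 1.3, it leaves 57 genes called, 0 of them among the 10 genes described here, so the call of *Timp3* below holds for the linear reading only. Across all tested genes 167 of 11583 were called (1.44%), 108 lower (0.932%) and 59 higher (0.509%) in TXNIP-/- LSECs. With 1 library left out the number called was 89 to 301. Among the 9 tested proteases and inhibitors 1 was called, *Timp3*, which was lower in TXNIP-/- LSECs. The mean was higher in TXNIP-/- LSECs for 3 of the 9 and lower for 6, and their median log2 fold change was -0.09, beside -2.75e-05 over all genes tested. The genotypes did not overlap for 3 of the 9, beside 2012 of all 11583 genes (17.4%). From a single call among so few genes nothing particular to them is read.

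*Timp3* encodes an inhibitor that stays bound to the extracellular matrix and blocks metalloproteinases, several ADAMTS proteases and ADAM17. It was the most abundant of the 10 genes in WT LSECs. Its counts were 3210, 3506 and 3292 in TXNIP-/- replicates 1, 2 and 3. They were 5275, 5279 and 5143 in WT replicates 1, 2 and 3. The libraries of each genotype lay close together, and the highest TXNIP-/- library was below the lowest WT library. Scaled to library size, *Timp3* was at 358, 357 and 352 CPM in TXNIP-/- LSECs and at 513, 503 and 544 CPM in WT LSECs. The level fell by 31.6%, from a WT mean of 520 ± 21.3 CPM to a TXNIP-/- mean of 356 ± 3.48 CPM (SD, n = 3 each; edgeR log2 fold change -0.55, 95% confidence interval -0.71 to -0.38, adjusted p = 0.000682). The log2 fold change was -0.51 without WT replicate 3, and *Timp3* was called in that fit. It was -0.61 with the term for WT replicates 1 and 2, which compares the TXNIP-/- libraries with WT replicate 3 alone. In a bulk library, fewer cells of a type and less RNA per cell cannot be told apart.

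*Timp1*, a secreted inhibitor that is known to be induced in injured liver, was near the lower end of what these libraries can measure. It had 32, 35 and 37 counts in TXNIP-/- LSECs. It had 13, 29 and 15 counts in WT LSECs. All TXNIP-/- libraries were above all WT libraries, with WT replicate 2 the nearest to them. The level was 3.70 ± 0.22 CPM in TXNIP-/- and 1.87 ± 0.79 CPM in WT LSECs (SD, n = 3), and the log2 fold change of 0.98 did not pass the test (95% confidence interval -0.17 to 2.12, adjusted p = 0.53, edgeR).

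*Timp2*, a secreted inhibitor that also takes part in the activation of pro-MMP2 by MMP14 at the cell surface, had 109, 102 and 94 counts in TXNIP-/- LSECs and 109, 97 and 139 in WT LSECs. The genotypes overlapped, and WT replicate 3 was the highest library. Its log2 fold change was -0.08 (95% confidence interval -0.62 to 0.46, adjusted p = 0.944, edgeR) and turned to 0.13 without WT replicate 3. It was -0.44 with the term for WT replicates 1 and 2, which compares the TXNIP-/- libraries with WT replicate 3 alone.

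Taken as a sum, the 3 inhibitors reached 374, 371 and 366 CPM in the TXNIP-/- libraries. They reached 525, 515 and 560 CPM in the WT libraries. These sums did not overlap and followed *Timp3*, which supplied 96.1 ± 0.24% of the TIMP counts in TXNIP-/- LSECs and 97.5 ± 0.35% in WT LSECs (SD, n = 3). There were 1.04 ± 0.07 *Timp1* counts per 100 *Timp3* counts in TXNIP-/- LSECs and 0.36 ± 0.16 in WT LSECs. The remaining family member, *Timp4*, had 0 counts in all 6 libraries.

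*Mmp14* encodes the membrane-anchored metalloproteinase that cuts collagen around the cell and activates pro-MMP2. It was second in level, with 2694, 3359 and 3462 counts in TXNIP-/- LSECs and 3966, 4187 and 2774 counts in WT LSECs. WT replicates 1 and 2 were the highest libraries, while WT replicate 3 lay near the lowest TXNIP-/- library, so the genotypes overlapped. The level was 338 ± 34.9 CPM in TXNIP-/- and 359 ± 57.5 CPM in WT LSECs (SD, n = 3; edgeR log2 fold change -0.09, 95% confidence interval -0.33 to 0.15, adjusted p = 0.849). The log2 fold change was -0.22 without WT replicate 3 and -0.009 without WT replicate 2. It turned to 0.20 with the term that sets WT replicates 1 and 2 apart, which leaves WT replicate 3 as the only WT library compared.

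The other membrane-type member, *Mmp15*, had 19, 34 and 6 counts in TXNIP-/- LSECs and 33, 45 and 25 counts in WT LSECs. The libraries of both genotypes overlapped, with a wide spread at these low counts (log2 fold change -0.70, 95% confidence interval -1.98 to 0.59, adjusted p = 0.742, edgeR). Single libraries moved this value, to -0.28 without TXNIP-/- replicate 3 and to -1.29 without TXNIP-/- replicate 2. The gelatinase gene *Mmp2* had 0, 0 and 11 counts in TXNIP-/- LSECs and 10, 14 and 24 in WT LSECs. TXNIP-/- replicate 3 lay inside the WT range while TXNIP-/- replicates 1 and 2 held no count, which allows up to 0.335 and 0.306 CPM. The log2 fold change of -2.004 had a confidence interval of -4.35 to 0.35 (adjusted p = 0.53, edgeR). This value rests on single libraries, as it was -1.42 without TXNIP-/- replicate 2, and without TXNIP-/- replicate 3 the TXNIP-/- libraries hold no count and no fold is given. The other gelatinase gene, *Mmp9*, had 3 counts in WT replicate 3 and 0 in the other libraries. It was not tested, and no difference was detectable at this depth. *Mmp14* supplied 99.3 ± 0.26% of the counts of the 4 metalloproteinases in TXNIP-/- LSECs and 98.6 ± 0.39% in WT LSECs (SD, n = 3).

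The ADAMTS proteases cut proteoglycans such as versican. *Adamts1* had 2126, 2045 and 2245 counts in TXNIP-/- LSECs and 2394, 2287 and 1828 counts in WT LSECs. The genotypes overlapped, with WT replicate 3 the lowest library (229 ± 17.5 against 215 ± 20.0 CPM, SD, n = 3; edgeR log2 fold change 0.09, 95% confidence interval -0.12 to 0.30, adjusted p = 0.814). The log2 fold change of *Adamts1* was 0.019 to 0.15 with 1 library left out, and 0.24 with the term for WT replicates 1 and 2. *Adamts9* was far lower, with 105, 87 and 118 counts in TXNIP-/- LSECs and 70, 71 and 89 in WT LSECs. WT replicate 3 reached into the TXNIP-/- range, and the log2 fold change of 0.53 did not pass the test (95% confidence interval -0.05 to 1.11, adjusted p = 0.489, edgeR). It was 0.42 to 0.70 with 1 library left out, and 0.23 with the term for WT replicates 1 and 2.

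*Adam17*, which encodes the sheddase of tumor necrosis factor and of many receptors and growth factors, had 910, 967 and 936 counts in TXNIP-/- LSECs. It had 1138, 1331 and 976 counts in WT LSECs. Scaled to library size, the TXNIP-/- libraries lay between 98.6 and 102 CPM and the WT libraries between 103 and 127 CPM, so that WT replicate 3 was just above the TXNIP-/- libraries. The log2 fold change was -0.18 (95% confidence interval -0.40 to 0.04, adjusted p = 0.542, edgeR), below the fold that a call needs. It was -0.25 to -0.097 with 1 library left out, and -0.045 with the term for WT replicates 1 and 2.

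**Figure D1:**
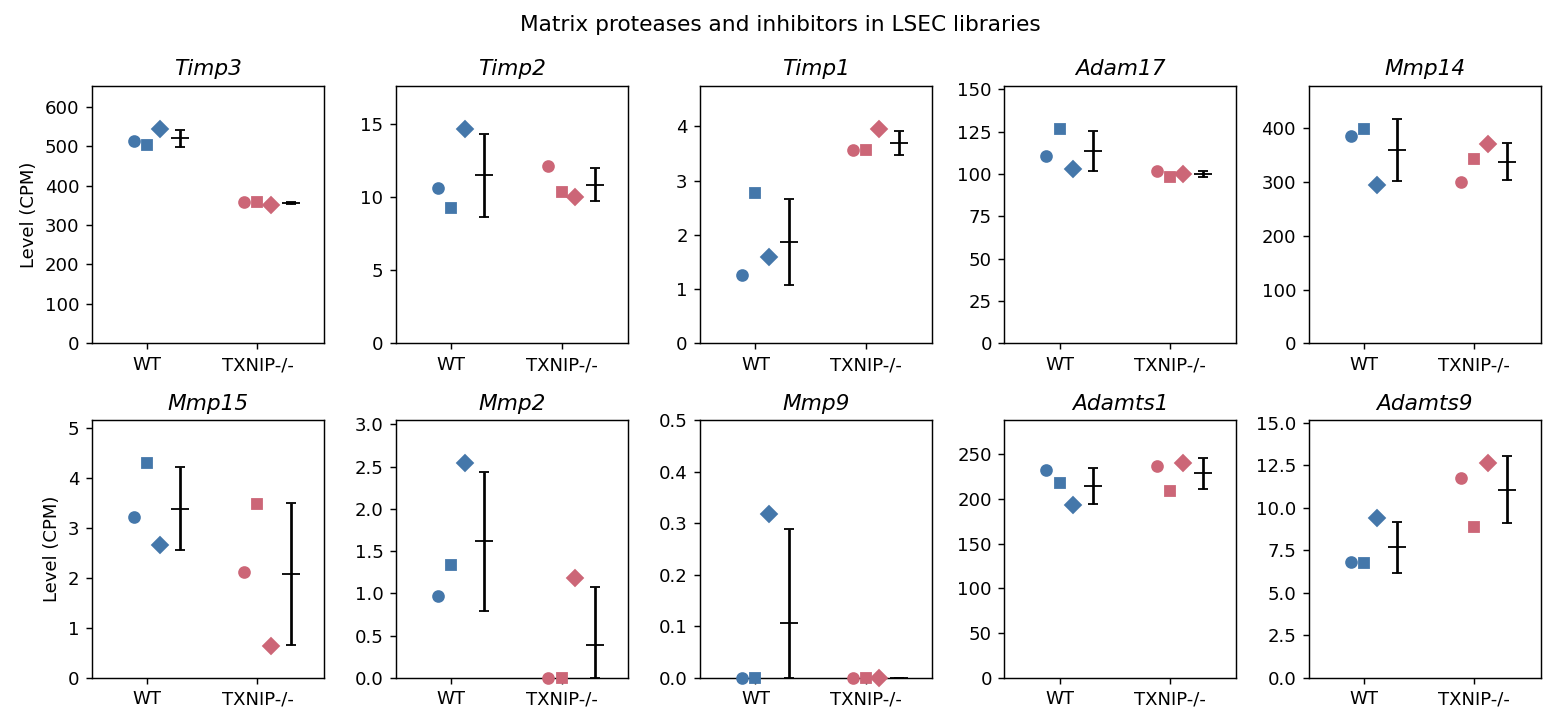
Level in CPM (vertical axes, from 0, on a scale of their own in each panel) of the 10 genes in each WT (blue) and TXNIP-/- (red) library, with circles for replicate 1, squares for replicate 2 and diamonds for replicate 3; black marks give mean and SD (n = 3), with the lower bar ended at 0. *Timp3* is at 503 to 544 CPM in WT and 352 to 358 CPM in TXNIP-/- libraries, while the genotypes overlap for *Mmp14* and *Adamts1*.

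In order of mean level, WT LSECs held *Timp3* (520 CPM), *Mmp14* (359 CPM), *Adamts1* (215 CPM) and *Adam17* (114 CPM). The ranges of these genes over the WT libraries did not overlap. *Timp2* (11.5 CPM) and *Adamts9* (7.66 CPM) followed with overlapping ranges. *Mmp15* (3.38 CPM), *Timp1* (1.87 CPM) and *Mmp2* (1.62 CPM) came next, each overlapping its neighbor in the order, and *Mmp9* was last at 0.106 CPM.

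In TXNIP-/- LSECs the first 4 places were the same, but the range of *Timp3* (352 to 358 CPM) lay inside that of *Mmp14* (301 to 370 CPM). *Adamts9* (11.1 CPM) and *Timp2* (10.9 CPM) overlapped, *Timp1* (3.70 CPM) stood above *Mmp15* (2.08 CPM), and *Mmp2* (0.392 CPM) overlapped *Mmp15*. There were 1.19, 1.04 and 0.951 *Timp3* counts for each *Mmp14* count in TXNIP-/- replicates 1, 2 and 3. The same ratio was 1.33, 1.26 and 1.85 in WT replicates 1, 2 and 3. *Timp3* thus had more counts than *Mmp14* in every library but TXNIP-/- replicate 3. The WT ratios lay above the TXNIP-/- ratios, by least in WT replicate 2.

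For each count of *Adam17* there were 3.53, 3.63 and 3.52 counts of *Timp3* in TXNIP-/- LSECs and 4.64, 3.97 and 5.27 in WT LSECs. For each count of *Adamts1* there were 1.51, 1.71 and 1.47 in TXNIP-/- LSECs and 2.20, 2.31 and 2.81 in WT LSECs. Neither ratio overlapped between genotypes, and both were highest in WT replicate 3. The summed level of the 4 metalloproteinases did overlap, at 340 ± 34.8 CPM in TXNIP-/- and 365 ± 57.3 CPM in WT LSECs (SD, n = 3). So did the sum of *Adamts1* and *Adamts9*, at 240 ± 19.4 and 222 ± 18.6 CPM.

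To see which genes follow *Timp3* most closely, log2 CPM was correlated over the 6 libraries with each of the other 11582 tested genes. The highest Pearson correlations were those of *Vav1* (0.999), *Snrk* (0.999), *Wbp5* (0.999), *P3h2* (0.998) and *Cd207* (0.996), and 119 genes lay above 0.95. *Snrk* had 127 CPM in TXNIP-/- and 189 CPM in WT LSECs. *Wbp5*, the most abundant of the 5, had 851 CPM and 1002 CPM and was not called (adjusted p = 0.133, edgeR). *Vav1*, *P3h2* and *Cd207* had at most 5.30 CPM in WT LSECs. *P3h2* and *Cd207* were at 0 in all TXNIP-/- libraries, so that their log2 CPM there is set by the prior count. The 6 libraries hold both genotypes, so a difference between the genotypes enters these correlations, which carry no test.

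The wider family and its regulators and substrates, in 9 lists, held 128 genes, of which 74 were tested and 8 called, 6 higher and 2 lower in TXNIP-/- LSECs. That is 10.8% of those tested, beside 1.44% of all genes, and the median log2 fold change was 0.11. The lists were chosen with earlier results of these data known, so the 2 shares are a description and not a test. Of 19 other metalloproteinases only 3 passed the filter, and *Mmp1a*, *Mmp1b*, *Mmp7* and *Mmp25* had 0 counts in all libraries. *Mmp12*, the macrophage elastase, was the 1 that was called. It had 48, 71 and 81 counts in TXNIP-/- LSECs and 171, 147 and 171 in WT LSECs. All WT libraries were above all TXNIP-/- libraries (log2 fold change -1.19, SE 0.26, edgeR adjusted p = 0.0215). The call was lost without TXNIP-/- replicate 1 (adjusted p = 0.110), TXNIP-/- replicate 2 (0.0829) or WT replicate 1 (0.125), with the log2 fold change at -1.03, -1.21 and -1.18.

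Of 17 other ADAMTS genes 7 were tested and 0 were called, with a median log2 fold change of 0.57. The aggrecanase gene *Adamts4* had the smallest p, with 33, 22 and 17 counts in TXNIP-/- LSECs and 5, 4 and 10 in WT LSECs. The genotypes did not overlap, but the log2 fold change of 1.996 did not pass (adjusted p = 0.291, edgeR). *Adamts7*, the most abundant of them, had 426 to 591 counts in TXNIP-/- LSECs and 391 to 615 in WT LSECs, with a log2 fold change of 0.17 (adjusted p = 0.81, edgeR). It was 0.43 without WT replicate 3 and 0.007 without WT replicate 2. It turned to -0.24 with the term for WT replicates 1 and 2, which compares the TXNIP-/- libraries with WT replicate 3 alone. Of 6 ADAMTS-like genes, which lack the protease domain, *Adamtsl4* alone was tested. It had 33, 43 and 14 counts in TXNIP-/- LSECs and 103, 86 and 62 in WT LSECs, again with no overlap but without passing (log2 fold change -1.37, adjusted p = 0.137, edgeR).

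Of 12 other ADAM genes 8 were tested and 0 were called, with a median log2 fold change of -0.11. *Adam8*, an ADAM protease known from myeloid cells, came nearest. It had 33, 14 and 25 counts in TXNIP-/- LSECs and 81, 70 and 93 in WT LSECs. All TXNIP-/- libraries were lower, with a log2 fold change of -1.65 (SE 0.41, edgeR adjusted p = 0.0577), which was called with DESeq2 (adjusted p = 0.00938). *Adam10*, the sheddase most closely related to *Adam17*, was close to it in level, at 101 CPM in both genotypes (edgeR log2 fold change 0.007, adjusted p = 0.989).

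Among 22 regulators of these proteases, which include the proprotein convertase *Furin* and the iRhoms and tetraspanins that guide ADAM17 and ADAM10, 13 were tested, 1 was called higher and 1 lower, and the median log2 fold change was -0.01. *Lrp1*, the endocytic receptor that clears proteases and TIMP3 from the cell surface, had 88, 86 and 50 counts in TXNIP-/- LSECs. It had 241, 191 and 250 counts in WT LSECs. The genotypes were far apart, with a log2 fold change of -1.51 (SE 0.25, edgeR adjusted p = 0.00313). *Cd44*, a hyaluronan receptor that docks metalloproteinases at the cell surface, had 421, 351 and 392 counts in TXNIP-/- LSECs and 258, 263 and 182 in WT LSECs. It was higher in every TXNIP-/- library (log2 fold change 0.84, SE 0.17, edgeR adjusted p = 0.0121), but not called without TXNIP-/- replicate 1 (log2 fold change 0.75, adjusted p = 0.0977) or TXNIP-/- replicate 3 (0.83, adjusted p = 0.0579). *Tspan14*, the most abundant of the list, had 1479 to 1786 counts in TXNIP-/- LSECs and 1701 to 2222 in WT LSECs.

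Of 20 matrix substrates 16 were tested, 2 were called higher and 0 lower, and the median log2 fold change was 0.40. *Thbs1*, a matricellular protein and ADAMTS1 substrate, had 956, 1255 and 982 counts in TXNIP-/- LSECs and 583, 660 and 552 in WT LSECs. *Dcn*, a small proteoglycan, had 247, 319 and 297 counts in TXNIP-/- LSECs and 176, 149 and 140 in WT LSECs. Both genes were higher in every TXNIP-/- library, with log2 fold changes of 0.93 (adjusted p = 0.000108) and 0.99 (adjusted p = 0.00497, edgeR). *Sparc* was the most abundant of the list, at 4512 ± 85.4 CPM in TXNIP-/- and 4838 ± 250 CPM in WT LSECs (SD, n = 3), and was not called.

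Of 22 genes whose proteins ADAM17 is known to shed, 20 were tested, 2 were called higher and 0 lower, and the median log2 fold change was 0.20. The receptor kinase gene *Axl* had 431, 486 and 356 counts in TXNIP-/- LSECs and 239, 243 and 178 in WT LSECs. The growth factor gene *Ereg* had 106, 159 and 160 counts in TXNIP-/- LSECs and 59, 67 and 75 in WT LSECs. All TXNIP-/- libraries were higher for both, with log2 fold changes of 1.06 (adjusted p = 0.00137) for *Axl* and 1.17 (adjusted p = 0.0292, edgeR) for *Ereg*. The call of *Ereg* was lost without TXNIP-/- replicate 2 or 3 (edgeR adjusted p = 0.117 and 0.135) and without WT replicate 1 or 2 (0.175 and 0.130). With the term for WT replicates 1 and 2, which leaves WT replicate 3 as the only WT library compared, its log2 fold change was 0.92. With a replicate block its log2 fold change was 1.17 (adjusted p = 0.0503), also not called.

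**Figure D2:**
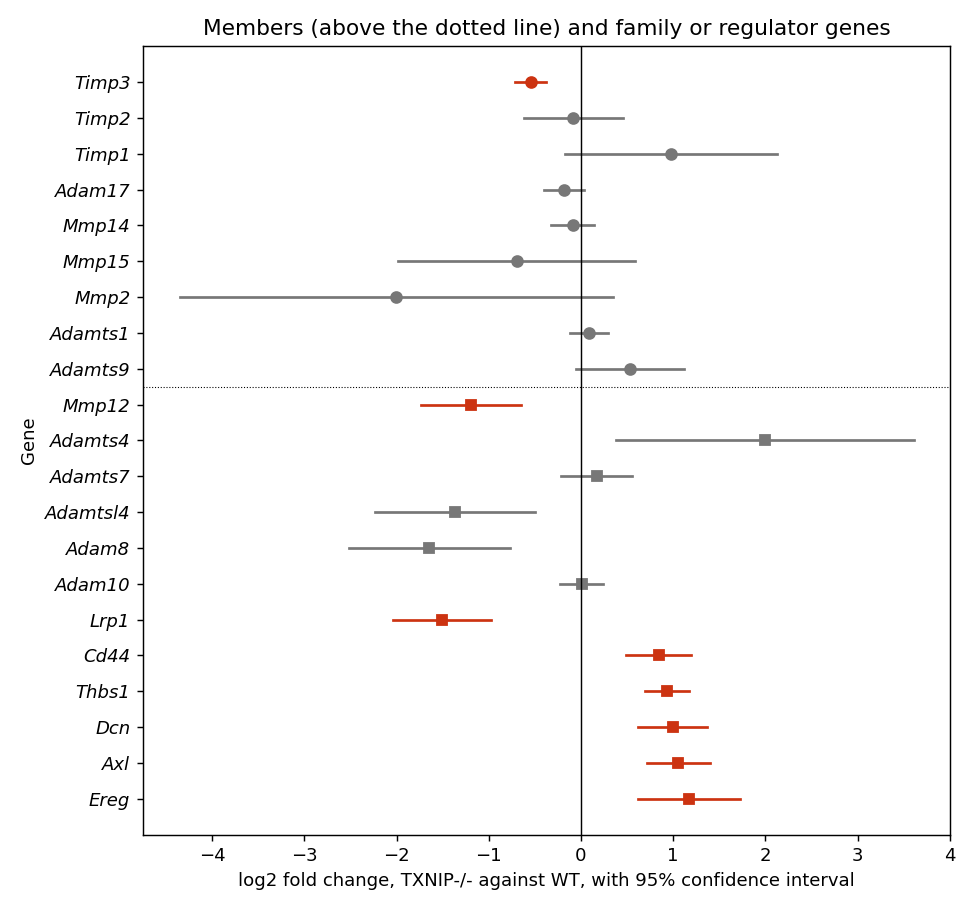
Log2 fold change of TXNIP-/- against WT LSECs (horizontal axis) with its 95% confidence interval from edgeR for the 9 tested proteases and inhibitors (circles, above the dotted line) and named genes of the wider lists (squares), 3 libraries per genotype; red marks called genes. *Timp3*, at -0.55, is the red circle, and the interval of *Mmp2* is the widest.

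The summed levels of macrophage markers and of stellate cell markers did not overlap between the genotypes. Of 13 macrophage markers 12 were tested and 11 were called lower in TXNIP-/- LSECs, with a median log2 fold change of -1.48. Their summed level was 315, 306 and 340 CPM in the TXNIP-/- libraries and 777, 742 and 762 CPM in the WT libraries. The most abundant was the scavenger receptor *Marco*, with 804, 742 and 787 counts in TXNIP-/- LSECs and 1751, 1866 and 1666 in WT LSECs, and 0 of the 13 markers were at 0 in all libraries. The genes *Mmp12*, *Lrp1*, *Adam8* and *Timp3* were lower in the same libraries, and the part of macrophage RNA in these results was not tested.

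Of 13 stellate cell markers, which share *Dcn* and 3 collagen genes with the matrix substrates, 11 were tested, 2 were called higher (*Acta2* and *Dcn*) and 0 lower, with a median log2 fold change of 0.88. Their summed level was 68.2, 81.1 and 79.0 CPM in the TXNIP-/- libraries and 38.4, 33.2 and 38.7 CPM in the WT libraries. *Dcn* was the most abundant of them, and 0 of the 13 were at 0 in all libraries. *Timp1*, *Thbs1*, *Cd44* and *Axl* had higher values in the same libraries, and the part of stellate cell RNA in these values was not tested.

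Hepatocyte markers, led by *Alb*, summed to 47.9, 42.0 and 57.3 CPM in TXNIP-/- LSECs and 44.1, 44.0 and 43.9 CPM in WT LSECs, with 9 of 10 listed markers in the files, 6 tested and 0 called. The median log2 fold change of the 6 was 0.63, with 4 higher and 2 lower by their means and 1 without overlap between genotypes, *Apoa1*, which was higher in TXNIP-/- LSECs (log2 fold change 0.63, edgeR adjusted p = 0.346). The part of hepatocyte RNA in the results was not tested. Of 11 neutrophil markers 10 were in the files and 0 were tested. *Mpo*, *Elane*, *Camp*, *Ngp* and *Retnlg* were at 0, and *Cxcr2*, the highest by mean level, had at most 9 counts. Of 10 lymphocyte markers 0 were tested and 8 were at 0, among them *Cd3e* and *Ms4a1*, and *Cd79a* had at most 4 counts. Of 6 cholangiocyte markers 1 was tested and not called, *Sox9*, the most abundant.

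The positions of the genes bear on how their reads were counted, since the use of strand is not given in the sources used here. In GENCODE M21 (GRCm38) *Timp3* takes up bases 86300372 to 86349506 of chromosome 10, plus strand, with 5 exons, inside the gene *Syn3* on the opposite strand. The last 500 bases of *Timp3* overlap an exon of *Syn3*, so reads of the 2 genes cannot be told apart there if strand was not used. The row of *Syn3* had 10, 10 and 8 counts in TXNIP-/- LSECs and 7, 9 and 24 in WT LSECs, far below those of *Timp3*. *Timp1* lies on chromosome X from 20870166 to 20874735 on the plus strand inside *Syn1*, with no exon of another gene over its last 500 bases.

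The end of *Adam17*, on chromosome 12 from 21323509 to 21373632 on the minus strand, overlaps *Iah1* on the opposite strand. *Iah1* had 224, 271 and 210 counts in TXNIP-/- LSECs and 282, 350 and 333 in WT LSECs, and scaled to library size the genotypes overlapped. Among the other named genes *Adam8* overlaps *Gm16201* in the same way. *Txnip* lies inside *Gm15441* on the opposite strand, which had at most 17 counts. *Mmp14*, on chromosome 14 from 54431612 to 54445364, and *Adamts1*, on chromosome 16 from 85793827 to 85803113, had no such overlap at their ends.

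The promoters of the genes were compared for features that the choice of genes did not use. RefSeq sequence of GRCm38.p6, from 250 bases before to 50 after the start, was given for 8 of the 10 genes, all but *Mmp2* and *Mmp9*. The GC box, GGGCGG, searched on both strands, was in 8 of the 8 windows, in 62.9% of the 11250 promoters of tested genes and in 35.7% of all 32851 promoters. The AP-1 motif, TGANTCA, was in 0 of the 8 windows, in 5.07% of the promoters of tested genes and in 7.81% of all promoters. The TATA box, TATAAA, was in the window of *Adamts1* alone, and in 6.96% of the promoters of tested genes. A match is a description of the letters and not of a bound site.

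The windows of *Timp3*, the inhibitor that was called, and of *Timp1*, whose values lay in the other direction, are shown as the plus strand with the GC box of either strand in capitals. The first is chr10:86300162-86300461, with 2 matches, and the second is chrX:20869916-20870215, with 1 match.
Timp3: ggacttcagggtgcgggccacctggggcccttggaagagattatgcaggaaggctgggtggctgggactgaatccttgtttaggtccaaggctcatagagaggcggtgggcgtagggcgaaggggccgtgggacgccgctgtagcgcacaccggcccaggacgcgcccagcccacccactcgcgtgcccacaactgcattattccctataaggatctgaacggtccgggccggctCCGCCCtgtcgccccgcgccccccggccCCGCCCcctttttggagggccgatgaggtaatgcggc
Timp1: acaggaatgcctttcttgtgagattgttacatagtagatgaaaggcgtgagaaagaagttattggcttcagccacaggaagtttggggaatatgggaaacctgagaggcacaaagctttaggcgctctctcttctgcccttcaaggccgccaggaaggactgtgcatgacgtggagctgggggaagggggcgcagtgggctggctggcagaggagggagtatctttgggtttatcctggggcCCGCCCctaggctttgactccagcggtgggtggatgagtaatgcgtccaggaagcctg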

How the data were processed

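RNA of LSECs was measured in 6 QuantSeq 3′ libraries, 3 TXNIP-/- and 3 WT, grouped by the genotype in the labels. The deposited values are whole-number counts per gene symbol without normalization. Alignment by the authors was with Bowtie2, their counting with bedtools took in both unique and multiple alignments, and the submitters' processing notes name mm10. Versions, annotation and use of strand are not given in the sources used here. Because multiple alignments were counted, genes with near-identical copies can share reads. Each file has 23282 rows, 44 of which repeat a symbol and were kept.

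In R 4.3.3, edgeR 4.0.16 was run with filterByExpr (minimum count 10), TMM normalization and the quasi-likelihood test with genotype as the single term, and p-values were adjusted by the Benjamini-Hochberg method over all 11583 genes tested. Standard errors and 95% confidence intervals come from each log2 fold change and the F value of its test. The methods of the study word the threshold of 1.3 as a log fold change without a base. It was read here as a linear fold, with the log2 reading as an alternative. For correlations, 2 was the prior count of log2 CPM. The test was also run on simulated data. Alternatives were DESeq2 1.42.0, limma 3.58.1 (limma-trend), other normalization factors, filters and thresholds, a replicate block, a term for WT replicates 1 and 2, each library left out, and the counts without *Rn45s*.

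The members and lists were chosen with earlier results of these data known. Named genes are all 10 members and, in each wider list, every called gene, or with none called the gene with the smallest p and the most abundant gene. The 5 genes most like the member with the smallest p, and the most abundant gene and the markers at 0 of each marker list, were also named. *Cdh5*, *Tspan14*, *Sparc*, *Stab1*, *Stab2*, *Mrc1*, *Acta2*, *Apoa1*, *Furin* and the family genes at 0 were named after their values were seen. Some genes are counted in the totals of their lists but are not reported here on their own. GENCODE M21 (GRCm38) gave the positions and RefSeq (GRCm38.p6) the promoters.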

Additional observations from a re-analysis of the deposited data

How the results depend on the processing

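*Timp3* kept its direction and its call in all 16 alternative fits (log2 fold change -0.63 to -0.51, highest adjusted p 0.0115). Among these, the fit with the term for WT replicates 1 and 2 has WT replicate 3 as its only WT library compared, and its call is not read as support. With a log2 fold threshold of 1.3 in place of a linear one, 0 of the 10 genes, 1 gene of the wider lists and 57 of all genes were called. With unadjusted p, 19 genes of the wider lists and 867 of all genes passed. All genes called numbered 301 with no filter on low counts, 252 with DESeq2, and 89 to 301 with 1 library left out (301 without WT replicate 3, 89 without WT replicate 1, 95 without WT replicate 2, 95 without TXNIP-/- replicate 1 and 98 without TXNIP-/- replicate 2). The cause of these differences was not tested.

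Same-numbered libraries did not deviate together from their genotype means (correlations -0.030, 0.017 and -0.047), so the numbers do not pair the libraries. With a replicate block 108 genes were called, 1 of the 10 genes and 7 of the wider lists, in which *Ereg* lost its call (adjusted p = 0.0503).

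Of the log2 fold changes under the alternatives, 346 kept their direction and side of the threshold, 11 lost a call, 5 gained one and 6 reversed. The reversed values, none of them called, included 0.20 for *Mmp14* and -0.24 for *Adamts7* with the term for WT replicates 1 and 2. That term leaves WT replicate 3 as the only WT library compared, and the counts above include fits with it. The others were 0.13 for *Timp2* without WT replicate 3 (-0.22 to 0.13 over the libraries left out), and values for *Adam10*. These were -0.078 with no normalization factors and -0.068 to 0.059 with 1 library left out (-0.062 without TXNIP-/- replicate 1, -0.068 without WT replicate 3). The cause was not tested. *Adam8* was also called with no filter, with limma-trend and with no normalization factors (adjusted p = 0.0068, 0.0485 and 0.0474), and *Adamtsl4* with no filter (0.0297). The summed TIMP level in TXNIP-/- LSECs was 360.2 CPM with no normalization factors. Genes near the floor, such as *Mmp2*, *Mmp9* and *Timp1*, are limited by depth.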
